A study of Mus musculus with 12 samples.

Results

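Cyp2a4, Cyp2a5, Cyp2a12, Cyp2b9, Cyp2b10 and Cyp2b13 are mouse genes of the CYP2A and CYP2B subfamilies of cytochrome P450. They were taken by name from the deposited table, where each of the 6 had a row of its own among 19852 genes, and all 6 were among the 10568 genes that passed the filter on low values (at least 0.5 RPKM in at least 3 libraries). RPKM is a read count scaled to transcript length and to the mapped reads of the library. The series measured liver RNA of C57BL/6 mice aged 20 weeks by sequencing, with 3 libraries in each of 4 groups: female ARE-Del, female WT, male ARE-Del and male WT, the WT mice being control littermates. The ARE-Del allele lacks the AU-rich element of the Ifng transcript, which normally shortens the life of that mRNA, and the series used it as a model of chronic interferon-gamma expression. It is a germ-line allele and is not limited to the liver. The group labels read ARE-Del or WT alone, while the extraction text of all 12 libraries, WT included, writes ARE-Del-/-. The differences below are therefore between groups as labelled.

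Cytochrome P450 enzymes are haem proteins of the endoplasmic reticulum that oxidise drugs, steroids and other fat-soluble molecules with electrons from cytochrome P450 reductase (Por). In mouse liver, Cyp2b9, Cyp2b13 and Cyp2a4 are textbook examples of female-predominant genes, whose low male level depends on the pulsed release of growth hormone, while Cyp2b10 is the classic target of the xenobiotic receptor CAR (Nr1i3). Hepatic P450 transcripts are also known to fall in many forms of inflammation. The members and the gene lists used here were chosen with earlier results of these data known.

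In the mouse annotation the 6 genes lie in 1 cluster on chromosome 7. RefSeq lists 17 Cyp2 entries in it, 13 coding genes and 4 pseudogenes, in the order Cyp2s1, Cyp2b10, Cyp2b28-ps, Cyp2b27-ps, Cyp2b13, Cyp2b26-ps, Cyp2b9, Cyp2a4, Cyp2b23, Cyp2b19, Cyp2g1, Cyp2a5, Cyp2a22, Cyp2a21-ps, Cyp2a12, Cyp2f2 and Cyp2t4. The files use the mm9 build, so gene coordinates were not taken from this annotation.

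The 250 bases upstream of the start site are shown for 5 members, because they hold the closest copies in the family and the 2 members of each close pair can be compared base by base. They come from RefSeq (GRCm38.p6, + strand), in which 6 of 6 members were matched. Capitals mark the bases that differ between the members of a pair (Cyp2a4 with Cyp2a5, Cyp2b9 with Cyp2b13). In Cyp2b10, capitals mark the matches to TTGCATAA and ATAAAA. The windows are chr7:26306942-26307191 for Cyp2a4, chr7:26835089-26835338 for Cyp2a5, chr7:26173159-26173408 for Cyp2b9, chr7:26061245-26061494 for Cyp2b13 and chr7:25897408-25897657 for Cyp2b10.
Cyp2a4: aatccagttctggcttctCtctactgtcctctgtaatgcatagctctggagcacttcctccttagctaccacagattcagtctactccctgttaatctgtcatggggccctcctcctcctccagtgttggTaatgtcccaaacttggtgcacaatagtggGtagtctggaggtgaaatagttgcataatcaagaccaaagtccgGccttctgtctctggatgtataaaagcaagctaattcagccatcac
Cyp2a5: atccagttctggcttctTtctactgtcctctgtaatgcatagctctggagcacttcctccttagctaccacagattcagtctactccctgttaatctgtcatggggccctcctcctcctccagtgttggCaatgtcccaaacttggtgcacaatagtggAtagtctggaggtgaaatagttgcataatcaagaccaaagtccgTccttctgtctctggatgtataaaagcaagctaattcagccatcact
Cyp2b9: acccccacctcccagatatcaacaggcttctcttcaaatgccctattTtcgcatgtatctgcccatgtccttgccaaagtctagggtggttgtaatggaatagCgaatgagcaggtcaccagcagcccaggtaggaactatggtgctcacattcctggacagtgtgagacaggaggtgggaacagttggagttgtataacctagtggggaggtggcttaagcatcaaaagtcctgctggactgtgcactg
Cyp2b13: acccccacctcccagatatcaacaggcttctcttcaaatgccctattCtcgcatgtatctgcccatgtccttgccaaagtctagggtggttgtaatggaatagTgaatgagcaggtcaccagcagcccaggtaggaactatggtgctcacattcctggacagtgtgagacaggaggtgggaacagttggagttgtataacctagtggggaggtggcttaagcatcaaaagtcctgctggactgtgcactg
Cyp2b10: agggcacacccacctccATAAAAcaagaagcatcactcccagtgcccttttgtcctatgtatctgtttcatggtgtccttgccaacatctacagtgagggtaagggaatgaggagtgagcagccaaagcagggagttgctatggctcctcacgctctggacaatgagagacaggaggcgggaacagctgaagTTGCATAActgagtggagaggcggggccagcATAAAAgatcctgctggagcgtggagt

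The windows of Cyp2a4 and Cyp2a5 were 98.4% identical over 249 aligned bases. Counted from the first base of the Cyp2a4 window, the 4 differences from Cyp2a4 to Cyp2a5 were C19T, T131C, G161A and G205T, which lie 232, 120, 90 and 46 bases before the start site. The windows of Cyp2b9 and Cyp2b13 were 99.2% identical over 250 aligned bases, and the differences from Cyp2b9 to Cyp2b13 were T48C and C104T, counted from the first base of the Cyp2b9 window. Cyp2b10 was 71.7% identical to each of the other Cyp2b windows, with 58 differing bases and 14 gap bases. Both pairs were thus near-copies upstream, while the levels given below ran together over the libraries in the Cyp2b pair and not in the Cyp2a pair.

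5 short motifs, chosen with the sequences in view, were searched on both strands of the 250-base windows and of 32851 RefSeq promoters of the same length. TATAAA, the core of a TATA box, was present in Cyp2a4, Cyp2a5 and Cyp2a12, starting 28, 29 and 39 bases before the start site, and in 12.4% of promoters. ATAAAA was present in Cyp2a4 and Cyp2a5, where it overlaps TATAAA, and at 2 places in Cyp2b10, and in 17.0% of promoters. CAAAGTCC, a motif of the hepatocyte factor HNF4A, was present in Cyp2a4 and Cyp2a5 and in 1.196% of promoters. TTGCATAA, which resembles sites of the C/EBP factors, was present in Cyp2a4, Cyp2a5 and Cyp2b10 and in 0.694% of promoters. TTCNNNGAA, the palindrome bound by STAT factors, had no match in the 6 windows and was present in 7.02% of promoters. A match describes letters only, and the 4 bases that separate Cyp2a4 from Cyp2a5 fall outside its matches to these motifs.

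Close copies also bear on the counting of reads. In GENCODE M21 transcripts, Cyp2a4 was 98.3% identical to Cyp2a5 over 1738 aligned bases, and 36.1% of its 50-base windows occurred unchanged in Cyp2a5. For Cyp2b9 and Cyp2b13, identity was 91.9% over 1848 aligned bases and 10.8% of the 50-base windows of each were shared. Cyp2b10 shared 7.82% of its windows with Cyp2b13 and 0.536% with Cyp2b9, and Cyp2a12 shared none with any member. The sources used here do not say how the authors assigned reads that fit 2 genes, so the split between Cyp2a4 and Cyp2a5, and to a lesser degree that between Cyp2b9 and Cyp2b13, is uncertain.

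Depth and library checks were as follows. The sources used here give no read totals, so depth is known only as an estimate from low values, 0.908 to 1.45 times that of female WT replicate 1. Summed RPKM was 173476 to 208647 per library, and libraries of a group correlated at r = 0.988 to 0.994 across tested genes. Ifng itself was below the filter, at 0.0898 to 0.238 RPKM in female ARE-Del, 0.00957 to 0.0208 in female WT, 0.0742 to 0.123 in male ARE-Del and 0 to 0.0382 in male WT livers. The library labelled female ARE-Del replicate 2 had 0.0456 RPKM of Xist, the RNA that coats the silenced X chromosome, against 33.0 to 45.6 in the other 5 female libraries. Its Ddx3y, a Y-linked gene, was listed at 0, as in the other female libraries. Most differences and counts of the members, the named genes and the gene lists that rest on it are given with and without it. The Cd163 difference, those of haem turnover genes, group means, marker sums, other alternative settings, shares without overlap and closest patterns use all 12 libraries. Scaling matters for small differences: the median of all tested genes was 0.09 higher in female ARE-Del than in female WT livers on the log2(RPKM + 1) scale and 0.10 higher in males, and quantile normalization moved these medians by -0.16 and -0.14.

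In the livers as a whole, the 6 transcripts summed to 746 ± 17.2 RPKM in female ARE-Del, 856 ± 113 in female WT, 497 ± 40.8 in male ARE-Del and 381 ± 2.53 in male WT livers (mean ± SD, n = 3 each). They made up 0.364% ± 0.00510, 0.463% ± 0.0630, 0.257% ± 0.0171 and 0.214% ± 0.00541 of summed RPKM in the same groups. With the library that lacked Xist left out, the female ARE-Del sums were 726 and 758 RPKM. Cyp2a12 had the highest mean level in each group. It was followed by Cyp2a4, Cyp2a5, Cyp2b9, Cyp2b13 and Cyp2b10 in female ARE-Del livers, and by the same genes with Cyp2a5 ahead of Cyp2a4 in female WT livers. In males only Cyp2a12, Cyp2a5 and Cyp2b10 exceeded 1.10 RPKM in any library.

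**Figure D1:**
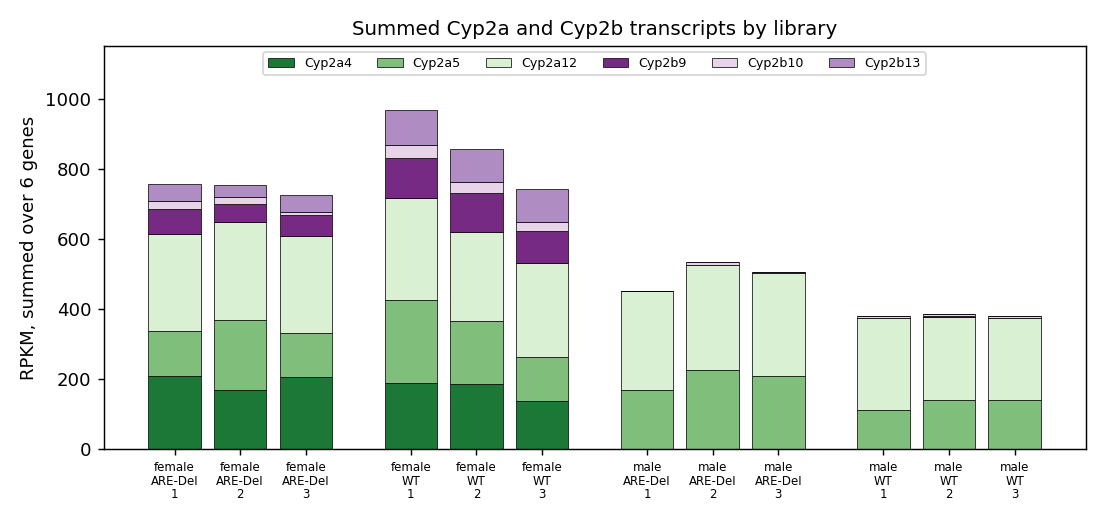
Stacked RPKM of the 6 genes in each of the 12 libraries (vertical axis in RPKM, 1 bar per library). Female bars hold all 6 colours, while male bars are almost wholly Cyp2a5 and Cyp2a12, and the male ARE-Del bars, 452 to 532 RPKM, stand above the male WT bars, 379 to 384 RPKM.

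Between the sexes, 4 of 6 members were higher in females of both genotypes: Cyp2a4, Cyp2b9, Cyp2b10 and Cyp2b13. Between ARE-Del groups, 16.4% of all tested genes were called higher in females and 6.02% lower, 22.4% in either direction (limma with Benjamini-Hochberg adjustment over 10568 genes, threshold 0.05). Between WT groups the shares were 6.72% higher and 3.04% lower, 9.76% in either direction. Of the calls, 73.2% between ARE-Del groups and 68.9% between WT groups were higher in females as deposited, 58.8% and 51.4% after median-of-ratios scaling, and 46.4% and 42.2% after quantile normalization. The median difference of the 6 members was 3.65 on the log2(RPKM + 1) scale in ARE-Del and 4.16 in WT livers, against 0.04 in both for all tested genes. Cyp2a5 and Cyp2a12 were not called in either genotype. Cyp2a4 and Cyp2b13 passed the filter only through their female libraries, as 1 and 0 of 6 male libraries reached 0.5 RPKM. Their presence among tested genes thus already depended on the female level. Cyp2b9 reached 0.5 RPKM in 6 female and 3 male libraries, so its male libraries alone would have passed the filter.

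**Figure D2:**
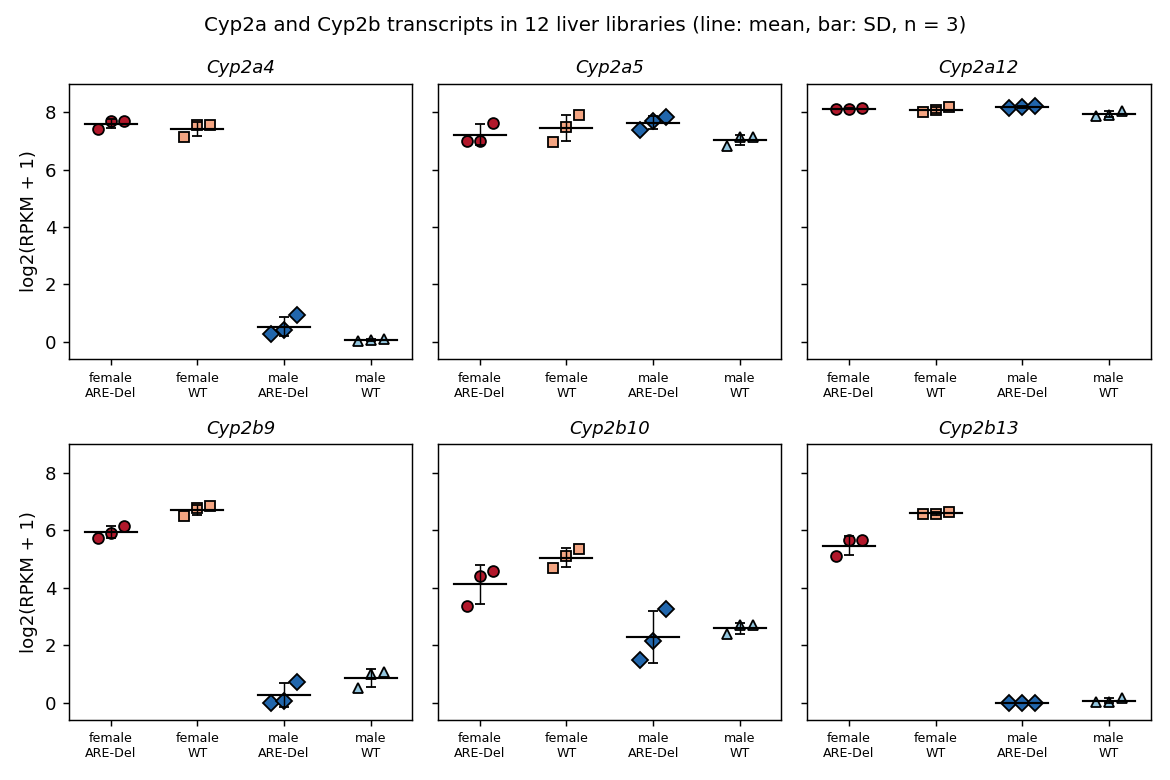
Level of each gene in each library as log2(RPKM + 1), with the group mean (line) and SD (bar, n = 3). Cyp2a4, Cyp2b9 and Cyp2b13 are near 0 in the 6 male libraries and above 5 in the 6 female libraries, Cyp2b10 is intermediate in males, and Cyp2a5 and Cyp2a12 are high throughout.

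Cyp2a4, a steroid 15-alpha-hydroxylase, stood at 208.9, 169 and 205 RPKM in the 3 female ARE-Del libraries and at 188, 186 and 138 RPKM in the female WT libraries. In males it was listed at 0.212, 0.324 and 0.891 RPKM in ARE-Del and at 0.0668, 0.049995 and 0.0222 RPKM in WT livers. The 6 female libraries were far above the 6 male libraries, and the female genotypes overlapped while the male genotypes did not. On the log2(RPKM + 1) scale the level was 7.07 ± 0.16 (SE) higher in female ARE-Del than in male ARE-Del livers (limma adjusted p = 2.8e-11) and 7.35 ± 0.16 higher in female WT than in male WT livers (adjusted p = 1.8e-11). These were the third largest female excess of all tested genes in each genotype. Cyp2a4 passed the filter only through its female libraries, so this rank and these p-values are not independent support for a female bias. This scale understates ratios to values near 0.

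Cyp2b13, a Cyp2b enzyme of female liver, stood at 49.7, 33.4 and 49.5 RPKM in female ARE-Del and at 99.8, 93.3 and 94.8 RPKM in female WT libraries. It was listed at 0 in the 3 male ARE-Del libraries and at 0.0148, 0.0221 and 0.118 RPKM in the male WT libraries. No female library approached the male values, and no female ARE-Del library reached the lowest female WT library. The female excess was 5.48 ± 0.12 in ARE-Del livers (adjusted p = 2.8e-11) and 6.53 ± 0.12 in WT livers (adjusted p = 4.0e-12) on the log2(RPKM + 1) scale. As with Cyp2a4, the gene was tested only because of its female libraries. Cyp2b13 had the lowest male level of the 6 members in ARE-Del livers, and in male WT livers its values overlapped those of Cyp2a4.

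Cyp2b9, the sequence neighbour of Cyp2b13 and likewise a female-predominant enzyme, stood at 70.1, 52.2 and 59.2 RPKM in female ARE-Del and at 113, 110.05 and 90.8 RPKM in female WT libraries. In males it was listed at 6.28e-22, 0.0454 and 0.659 RPKM in ARE-Del and at 0.409, 1.01 and 1.10 RPKM in WT livers. The female libraries were again above all male libraries, and the female genotypes were separate while the male genotypes overlapped. The first male ARE-Del value is one of the 2.26% of table entries between 0 and 1e-06 and is in effect 0. The female excess was 5.67 ± 0.20 on the log2(RPKM + 1) scale in ARE-Del (adjusted p = 2.2e-09) and 5.86 ± 0.20 in WT livers (adjusted p = 1.4e-09).

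Cyp2b10, the phenobarbital-inducible enzyme by which CAR activity is usually read, had a smaller sex difference, with male livers clearly above 0. Its levels were 23.2, 20.4 and 9.19 RPKM in female ARE-Del and 39.6, 33.4 and 24.8 RPKM in female WT libraries. Male libraries held 1.77, 8.52 and 3.44 RPKM in ARE-Del and 4.19, 5.47 and 5.55 RPKM in WT livers. The lowest female ARE-Del library was only just above the highest male ARE-Del library, and the male genotypes overlapped. Mean RPKM in female ARE-Del livers was 3.84 times that in male ARE-Del livers (17.6 ± 7.42 and 4.58 ± 3.52), and in female WT livers it was 6.43 times that in male WT livers (32.6 ± 7.45 and 5.07 ± 0.763). The differences of log2(RPKM + 1) were 1.83 ± 0.40 in ARE-Del (adjusted p = 0.00626) and 2.45 ± 0.40 in WT livers (adjusted p = 0.00213).

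Cyp2a5, which hydroxylates coumarin and nicotine, was at 112 RPKM or more in each of the 12 libraries. It stood at 128, 198 and 126 RPKM in female ARE-Del and at 237, 179.7 and 125 RPKM in female WT libraries. Male libraries held 168, 226 and 208 RPKM in ARE-Del and 112, 139 and 140.2 RPKM in WT livers. The sexes overlapped in both genotypes, and the female WT libraries alone spanned most of the range. The female-minus-male difference of log2(RPKM + 1) was -0.43 (95% interval -0.93 to 0.06, adjusted p = 0.200) in ARE-Del and 0.43 (-0.07 to 0.92, adjusted p = 0.259) in WT livers. By mean RPKM the groups ran, from high to low, male ARE-Del, female WT, female ARE-Del and male WT, and each neighbouring pair in that order overlapped.

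Cyp2a12, a steroid and bile acid 7-alpha-hydroxylase, was the most even of the 6. It stood at 277, 280.4 and 276 RPKM in female ARE-Del, 291, 254 and 269 in female WT, 282, 297 and 293 in male ARE-Del and 263, 238 and 233 in male WT livers. Its lowest and highest libraries of the 12 thus lay at 233 and 297 RPKM. Female ARE-Del libraries were all slightly below male ARE-Del libraries without overlap, in a comparison where 13.1% of tested genes were lower in this way. The WT sexes overlapped, and there 9.58% of tested genes were lower in females without overlap. The female-minus-male difference of log2(RPKM + 1) was -0.06 (95% interval -0.24 to 0.11, adjusted p = 0.617) in ARE-Del and 0.15 (-0.03 to 0.32, adjusted p = 0.273) in WT livers.

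Leaving out the library that lacked Xist kept the 4 sex differences in ARE-Del livers past the threshold, where 21.1% of tested genes were then called, 16.9% higher and 4.18% lower in females. The log2(RPKM + 1) differences without it were 7.17 for Cyp2a4, 5.77 for Cyp2b9, 1.68 for Cyp2b10 (adjusted p = 0.0223) and 5.66 for Cyp2b13. For Cyp2a5 and Cyp2a12 they were -0.64 (adjusted p = 0.0623) and -0.069 (adjusted p = 0.634). Groups did not overlap for 4 members that were higher in females in each genotype, where 26.7% of tested genes in ARE-Del and 18.9% in WT livers were higher without overlap. The 2 sex comparisons share no library in their group means, but both take their estimate of spread from 1 fit over all 12 libraries.

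The close pairs divided differently between the sexes. Of the summed Cyp2a4 and Cyp2a5 signal, Cyp2a4 made up 56.7% ± 9.15 in female ARE-Del, 49.2% ± 4.45 in female WT, 0.232% ± 0.169 in male ARE-Del and 0.0372% ± 0.0220 in male WT livers (SD, n = 3). Male libraries with 112 to 226 RPKM of Cyp2a5 therefore held at most 0.891 RPKM of Cyp2a4. Of the summed Cyp2b9 and Cyp2b13 signal, Cyp2b13 made up 42.01% ± 3.29 in female ARE-Del and 47.9% ± 2.77 in female WT livers, with ranges of 39.0% to 45.5% and 45.9% to 51.1% that did not overlap. In the 2 female ARE-Del libraries with Xist, the shares were 61.9% and 62.0% for Cyp2a4, and 41.5% and 45.5% for Cyp2b13. Male shares of the Cyp2b pair rest on values near 0.

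**Figure D3:**
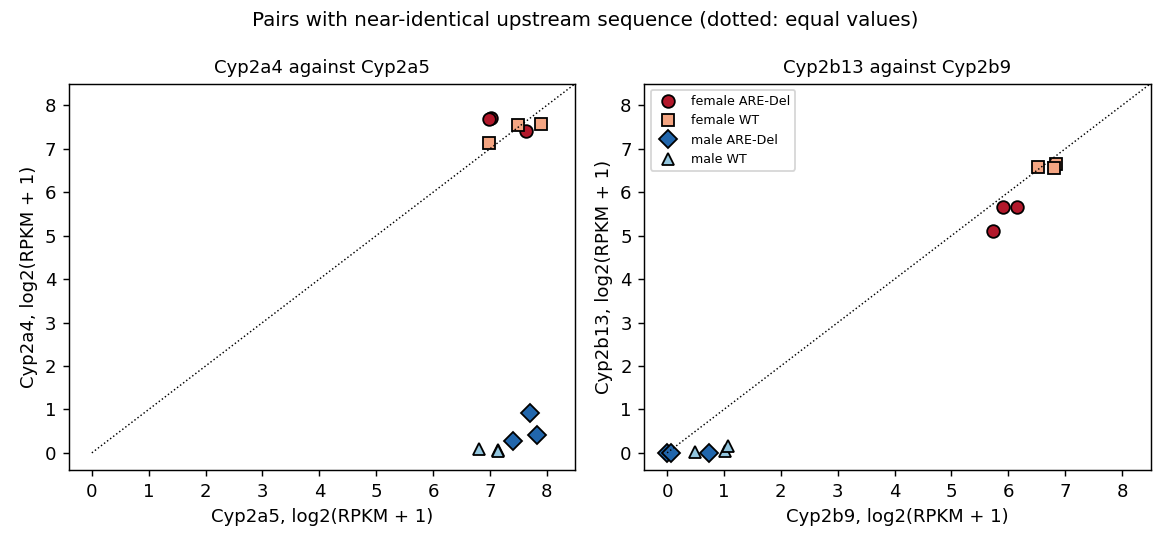
Each point is a library, plotted by log2(RPKM + 1) of the 2 genes of a pair with nearly identical upstream sequence, and the dotted line marks equal levels. Cyp2a4 leaves the line in males, where Cyp2a5 stays near 7 to 8, whereas Cyp2b13 and Cyp2b9 lie near the line in females and together near 0 in males.

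The correlations over the 12 libraries follow this split and describe mainly the difference between the sexes, which all 12 points share. Pearson's r of log2(RPKM + 1) was 0.994 for Cyp2b9 with Cyp2b13, 0.985 for Cyp2a4 with Cyp2b9, 0.986 for Cyp2a4 with Cyp2b13, and 0.865 to 0.903 for Cyp2b10 with these 3. It was 0.0295 for Cyp2a4 with Cyp2a5 and 0.55 for Cyp2a5 with Cyp2a12. Over the 11 libraries other than the one that lacked Xist it was 0.995 for Cyp2b9 with Cyp2b13 and -0.049 for Cyp2a4 with Cyp2a5.

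In females, the genotype comparison asks how chronic interferon-gamma expression bears on these transcripts in the sex that expresses all 6. Cyp2b13 and Cyp2b9 fell in ARE-Del livers, to 0.461 and 0.578 times the female WT mean. No member rose: the background was 31.3% of tested genes called, 25.8% up and 5.53% down, and 2 of 6 members were called, both down. The share of calls that were up was 82.3% as deposited, 52.3% after median-of-ratios scaling and 39.3% after quantile normalization. The median difference of the 6 was -0.51 on the log2(RPKM + 1) scale, against 0.09 for all tested genes. It falls between the Cyp2b differences, -1.12 to -0.79, and the Cyp2a differences, -0.24 to 0.19, so it does not describe a shift of all 6. When the library that lacked Xist was left out, 29.9% of tested genes were called, 26.1% up and 3.88% down, Cyp2b9 and Cyp2b13 were again the members called, and the median of the 6 was -0.57.

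Cyp2b13 averaged 44.2 ± 9.38 RPKM in female ARE-Del and 96.0 ± 3.39 RPKM in female WT livers (SD, n = 3 each). Its log2(RPKM + 1) difference of -1.12 ± 0.12 (SE, adjusted p = 2.0e-05) was past the threshold in 21 of 21 alternative settings. The lowest of the 3 ARE-Del values, 33.4 RPKM, belonged to the library that lacked Xist. Without that library the difference was -0.94 ± 0.07 (adjusted p = 2.9e-06).

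Cyp2b9 averaged 60.5 ± 9.05 RPKM in female ARE-Del and 104.7 ± 12.2 RPKM in female WT livers. The difference was -0.79 ± 0.20 on the log2(RPKM + 1) scale (adjusted p = 0.00971), and -0.69 ± 0.22 (adjusted p = 0.0380) without the library that lacked Xist. With smaller pseudocounts of 0.5 and 0.1 its size was nearly the same, -0.79 in both cases, but the adjusted p was 0.0550 and 0.325. The highest ARE-Del library, at 70.1 RPKM, remained below the lowest WT library, at 90.8 RPKM.

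Cyp2b10 averaged 17.6 ± 7.42 RPKM in female ARE-Del and 32.6 ± 7.45 RPKM in female WT livers. Its difference of -0.92 ± 0.40 (95% interval -1.79 to -0.05) did not pass after adjustment (adjusted p = 0.0991), although its 3 ARE-Del libraries, at 9.19 to 23.2 RPKM, were below its 3 WT libraries, at 24.8 to 39.6 RPKM. Without the library that lacked Xist it was -1.07 ± 0.45 (adjusted p = 0.0994). It passed in 1 of 21 alternative settings, without male ARE-Del replicate 2, which has the highest male value and enters through the shared estimate of spread (adjusted p = 0.0365). All 3 Cyp2b genes were thus lower without overlap between the female groups, in a comparison where 8.66% of tested genes were lower and 34.9% higher in this way. Their summed level was 122 ± 19.0 RPKM in female ARE-Del and 233 ± 21.4 RPKM in female WT livers, and it was 118 and 143 RPKM in the 2 female ARE-Del libraries with Xist.

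The Cyp2a genes did not pass the test in females and had overlapping groups. Cyp2a4 averaged 194 ± 21.9 RPKM in female ARE-Del and 171 ± 28.0 RPKM in female WT livers, with a log2(RPKM + 1) difference of 0.19 (95% interval -0.16 to 0.54, adjusted p = 0.388). Cyp2a5 averaged 151 ± 40.8 and 181 ± 56.2 RPKM in the same groups, with a difference of -0.24 (-0.74 to 0.25, adjusted p = 0.450). Cyp2a12 averaged 278 ± 2.08 and 271 ± 18.5 RPKM, with a difference of 0.04 (-0.14 to 0.21, adjusted p = 0.751). Without the library that lacked Xist the differences were 0.29, -0.45 and 0.032 (adjusted p = 0.236, 0.149 and 0.819). An interval that spans 0 does not show that the groups were alike, and that of Cyp2a12 was the narrowest of the 3.

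In males, 1 of 6 members was called. Cyp2a12 rose on the deposited scale but not after quantile normalization, where its difference was -0.019. In this comparison 21.5% of tested genes were called, 19.5% up and 2.04% down, so that 1 call up among 6 is near the background. The share of calls that were up was 90.5% as deposited, 55.7% after median-of-ratios scaling and 44.5% after quantile normalization. The median difference of the 6 was 0.09 on the log2(RPKM + 1) scale, against 0.10 for all tested genes.

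**Figure D4:**
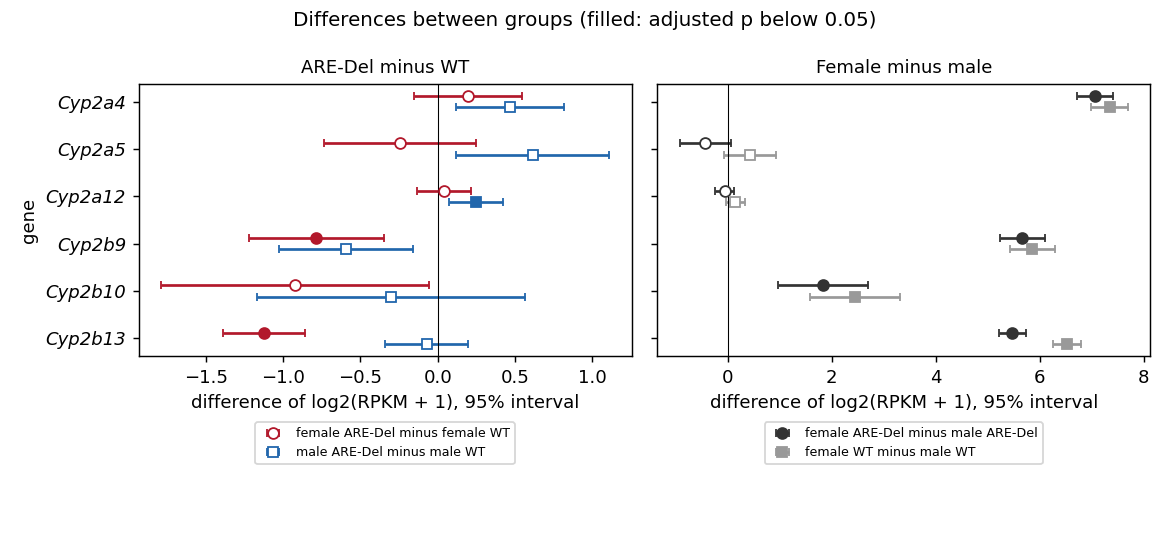
Differences of log2(RPKM + 1) with 95% intervals for each gene, ARE-Del minus WT in each sex (left) and female minus male in each genotype (right). Filled symbols passed an adjusted p of 0.05: Cyp2b9 and Cyp2b13 at the left of 0 in females, Cyp2a12 at 0.25 in males (-0.019 after quantile normalization), and 4 genes between 1.83 and 7.35 for the sexes.

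Cyp2a12 averaged 290.7 ± 7.67 RPKM in male ARE-Del and 244.8 ± 15.8 RPKM in male WT livers, a ratio of 1.19, without overlap. Its difference of log2(RPKM + 1) was 0.25 ± 0.08 (adjusted p = 0.0440). The call held in 8 of 21 alternative settings. The difference was 0.085 with median-of-ratios scaling (adjusted p = 0.4996) and turned to -0.019 with quantile normalization (adjusted p = 0.877). It held without female ARE-Del replicate 2, female WT replicate 1 or female WT replicate 2, and was lost without any 1 of the other 9 libraries (adjusted p = 0.0504 to 0.141).

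Cyp2a5 averaged 201 ± 29.8 RPKM in male ARE-Del and 130.4 ± 16.2 RPKM in male WT livers, and its lowest ARE-Del library, at 168 RPKM, was above its highest WT library, at 140.2 RPKM. The difference of 0.61 ± 0.23 did not pass (95% interval 0.12 to 1.11, adjusted p = 0.0734). It did pass when the male libraries were fitted alone (adjusted p = 0.0176) and without the female library that lacked Xist (adjusted p = 0.0467), female WT replicate 1 (0.0492) or female WT replicate 3 (0.0390).

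Cyp2a4 was at 0.212 to 0.891 RPKM in male ARE-Del and at 0.0222 to 0.0668 RPKM in male WT livers, without overlap. The difference on the log2(RPKM + 1) scale was 0.47 ± 0.16 (adjusted p = 0.0557), and it grew with smaller pseudocounts, to 0.78 at 0.5 (adjusted p = 0.0185) and 1.81 at 0.1 (adjusted p = 0.00163). It also passed without female WT replicate 3 (adjusted p = 0.0386) or male ARE-Del replicate 1 (adjusted p = 0.0332). Both male groups lie below 1 RPKM, in libraries where Cyp2a5 was at 168 to 226 RPKM in ARE-Del and 112 to 140.2 RPKM in WT, and the part of shared reads in these values was not tested. Groups were higher without overlap in male ARE-Del livers for 36.1% of tested genes, and Cyp2a4, Cyp2a5 and Cyp2a12 were among them.

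The Cyp2b genes of males were low and did not pass. Cyp2b9 was at 6.28e-22 to 0.659 RPKM in male ARE-Del and at 0.409 to 1.10 RPKM in male WT livers, with a difference of -0.59 ± 0.20 (adjusted p = 0.0530). It passed with pseudocounts of 0.5 (-0.93, adjusted p = 0.0367) and 0.1 (-1.98, adjusted p = 0.0284), with both other scalings, and without male ARE-Del replicate 3 (adjusted p = 0.00828) or male WT replicate 1 (adjusted p = 0.0277). Cyp2b10 averaged 4.58 ± 3.52 RPKM in male ARE-Del and 5.07 ± 0.763 RPKM in male WT livers, with a difference of -0.30 (95% interval -1.17 to 0.57, adjusted p = 0.629). The ARE-Del libraries straddled the WT libraries, 2 below and 1 above, and without male ARE-Del replicate 1 the difference was 0.11. Cyp2b13 was listed at 0 in all 3 male ARE-Del libraries and at 0.0148 to 0.118 RPKM in male WT livers. Its male groups thus did not overlap, but all values lie near 0. The share of all tested genes lower in this way is not given here. The difference of Cyp2b13 was -0.07 ± 0.12 (adjusted p = 0.719).

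The difference between the sexes in the genotype effect was tested directly as an interaction. Only Cyp2b13 among the 6 was called, with -1.05 ± 0.17 on the log2(RPKM + 1) scale (adjusted p = 0.0277), where 0.568% of tested genes were called, 0.435% up and 0.132% down. It was -0.87 ± 0.09 (adjusted p = 0.00208) without the library that lacked Xist. Cyp2b13 passed the filter through its female libraries alone, and male livers held at most 0.118 RPKM of it. The male difference therefore had almost no room below 0 on this scale, and the interaction largely repeats the female difference of -1.12. The call held in 11 of 20 alternative settings. It was lost without female WT replicate 1 or 2, male ARE-Del replicate 2, or any 1 of the 3 male WT libraries (adjusted p = 0.0544 to 0.105), with a pseudocount of 0.1 (-0.60, adjusted p = 0.611), with a pseudocount of 0.5 (-0.996, adjusted p = 0.0549) and with no filter on low values (-1.05, adjusted p = 0.0668).

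For the other 5 members the interaction was not called. It was -0.28 ± 0.23 for Cyp2a4 (adjusted p = 0.758), -0.21 ± 0.11 for Cyp2a12 (adjusted p = 0.538), -0.19 ± 0.28 for Cyp2b9 (adjusted p = 0.889) and -0.62 ± 0.56 for Cyp2b10 (adjusted p = 0.789). Cyp2a5 had the largest of these, -0.86 ± 0.32 (95% interval -1.56 to -0.16, adjusted p = 0.296). Its mean was lower in ARE-Del than in WT females and higher in ARE-Del than in WT males. With the library that lacked Xist left out, the interactions were -0.18 for Cyp2a4, -1.07 for Cyp2a5, -0.22 for Cyp2a12, -0.093 for Cyp2b9 and -0.77 for Cyp2b10, again none of them called (adjusted p = 0.136 to 0.953). The female fall of Cyp2b9 is not shown to differ from its male difference.

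In a list of other genes of the cluster and its chromosomal region, 4 passed the filter, Cyp2g1, Cyp2f2 and Axl among them. Cyp2a22, Cyp2b19, Cyp2b23, Cyp2s1 and Cyp2t4 of the cluster were below it. Cyp2g1, the gene next to Cyp2a5 and known as an olfactory P450, rose in ARE-Del livers of both sexes while no Cyp2b member was called up. It stood at 9.05, 9.66 and 8.13 RPKM in female ARE-Del, 3.46, 2.54 and 1.66 in female WT, 3.01, 2.89 and 4.86 in male ARE-Del and 0.236, 0.471 and 0.488 in male WT livers. The differences of log2(RPKM + 1) between genotypes were 1.52 ± 0.18 in females (adjusted p = 4.5e-05) and 1.69 ± 0.18 in males (adjusted p = 5.5e-05). Cyp2f2, a P450 of lung and liver further along the cluster, was lower in females than in males, with differences of -0.83 ± 0.11 in ARE-Del and -0.60 ± 0.11 in WT livers. The list of cluster genes also held Axl, a receptor tyrosine kinase of the same chromosomal region, which rose by 1.70 ± 0.16 in female and 1.31 ± 0.16 in male ARE-Del livers. These calls held when the library that lacked Xist was left out, with 1.46 for Cyp2g1 and 1.75 for Axl between female genotypes and -0.74 for Cyp2f2 between ARE-Del sexes. With all 12 libraries, Cyp2g1 was also higher in females. The difference was 1.14 ± 0.18 in ARE-Del (limma adjusted p = 0.00103) and 1.32 ± 0.18 in WT livers (adjusted p = 0.000654).

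Among 23 tested regulators of Cyp2a and Cyp2b transcription, 3 rose and 3 fell in female ARE-Del livers on the deposited scale. In male ARE-Del livers 5 rose and 0 fell. Without the library that lacked Xist, 3 rose and 2 fell in females and 5 rose and 1 fell in males. Of all tested genes, 25.8% were called up and 5.53% down in females, and 19.5% and 2.04% in males. Without that library these shares were 26.1% and 3.88% in females, and 20.1% and 2.32% in males. The 5 male rises are near the share of all tested genes. Nr1i3 (CAR), the receptor that induces Cyp2b10, was at 26.5, 21.5 and 28.0 RPKM in female ARE-Del and 33.6, 34.5 and 43.7 RPKM in female WT libraries, against 12.7, 12.5 and 18.2 in male ARE-Del and 16.0, 19.1 and 18.2 in male WT libraries. It fell in female ARE-Del livers by 0.54 on the log2(RPKM + 1) scale (SE 0.15, adjusted p = 0.0166), without overlap, but without the library that lacked Xist the difference was -0.43 ± 0.16 and was not called (adjusted p = 0.0640). Its male difference of -0.29 did not pass (adjusted p = 0.192). Nr1i3 was higher in females by 0.78 ± 0.15 in ARE-Del and 1.03 ± 0.15 in WT livers (adjusted p = 0.00314 and 0.000996), and by 0.89 in ARE-Del livers without that library (adjusted p = 0.00294). Nr1i2 (PXR), the related receptor, had overlapping genotype groups within each sex, at 12.0045 to 17.7, 13.7 to 19.0, 12.4 to 19.9 and 11.6 to 12.6 RPKM in female ARE-Del, female WT, male ARE-Del and male WT livers. Hnf4a, a factor named for Cyp2a and Cyp2b promoters, rose in male ARE-Del livers by 0.44 ± 0.12 (adjusted p = 0.0221). Foxa3, another hepatocyte factor, rose by 0.76 ± 0.14 in female (0.80 without that library) and 0.68 ± 0.14 in male ARE-Del livers.

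**Figure D5:**
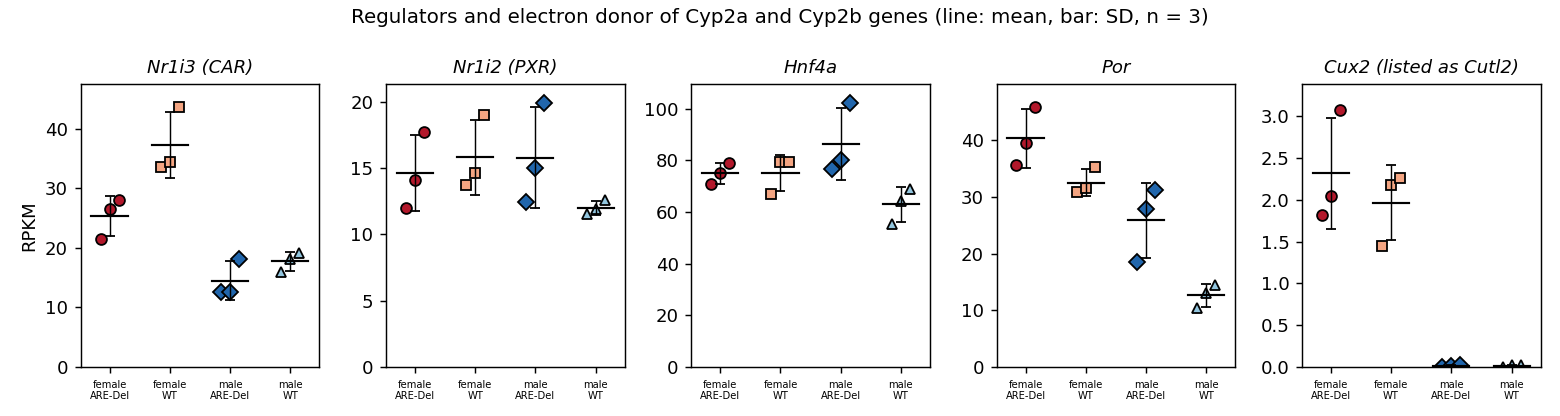
RPKM of 3 regulators, the electron donor Por and the female-predominant repressor Cux2 in each library, with group mean (line) and SD (bar, n = 3). Nr1i3 is lower in the female ARE-Del than in the female WT libraries and lowest in males, and Cux2 is near 0 in the 6 male libraries.

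Genes that share regulators with the members gave the following counts. Counts over gene lists, those of the regulators included, were not recomputed under other scalings. Of 29 tested target genes of CAR and PXR outside the members, 2 rose and 8 fell in female ARE-Del livers (list median -0.22), and 5 rose and 3 fell in male ARE-Del livers (list median 0.14). Without the library that lacked Xist, 2 rose and 6 fell in females (list median -0.15) and 5 rose and 4 fell in males. With all 12 libraries, 25.8% of all tested genes were called up and 5.53% down in females, and 19.5% and 2.04% in males. Slco1a4, a bile acid and drug importer, fell in female ARE-Del livers by 1.30 (SE 0.13) on the log2(RPKM + 1) scale, and by 1.32 (SE 0.15) without that library. It stood at 9.16 to 12.1 RPKM in female ARE-Del, 26.2 to 29.0 in female WT, 2.23 to 3.36 in male ARE-Del and 4.75 to 6.45 in male WT livers. Sult5a1, a sulfotransferase, rose in both sexes, by 1.16 ± 0.11 in females (1.25 without that library) and 1.82 ± 0.11 in males, so the list did not move as one.

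Of 25 tested female-biased liver genes outside the members, 23 were higher in females in each genotype, 9 fell and 1 rose in female ARE-Del livers, and 2 rose and 0 fell in male ARE-Del livers. The list was chosen for its known bias between the sexes, so the first count describes it. Without the library that lacked Xist, 22 were higher in females between ARE-Del groups, 5 fell and 1 rose in female ARE-Del livers, and 3 rose and 0 fell in male ARE-Del livers. The median genotype difference of the list was -0.24 in females (-0.37 without that library) and 0.06 in males, against 0.09 and 0.10 for all tested genes. Between genotypes, 25.8% of all tested genes were called up and 5.53% down in females, and 19.5% and 2.04% in males. Sult3a1, a female-predominant sulfotransferase, had the pattern most like Cyp2b13 over the 12 libraries among 8872 named genes (r = 0.997). It averaged 56.4 RPKM in female ARE-Del, 98.9 in female WT and 0.0458 in male ARE-Del livers and was listed at 0 in male WT livers. Cyp2b9 was closest to Nt5e (r = 0.996). These likenesses again share the split by sex. For Cyp2b10 the closest gene was Pemt (r = 0.957), for Cyp2a5 Hrbl (r = 0.910) and for Cyp2a12 Spr (r = 0.906).

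Further lists were as follows. Of 17 tested growth hormone and sex-pattern regulators, 2 rose and 2 fell in female and 1 rose and 2 fell in male ARE-Del livers. The growth hormone receptor Ghr fell by 0.43 (SE 0.09) in females (by 0.35 without the library that lacked Xist) and by 0.30 (SE 0.09) in males, and Cux2, a repressor of male-biased genes that the table lists as Cutl2, was at 1.82 to 3.08 RPKM in female ARE-Del and 1.45 to 2.26 in female WT livers against 0 to 0.0215 in male ARE-Del and 0 to 0.0246 in male WT livers. Of 14 genes for electron transfer and haem turnover, 1 rose and 4 fell in female and 2 rose in male ARE-Del livers. Of these, Hmox1, whose enzyme breaks haem down, rose by 2.32 ± 0.24 in female and 1.53 ± 0.24 in male ARE-Del livers. The largest falls in females were those of Cyb5b (0.80 ± 0.12) and Cyb5 (0.45 ± 0.08). Por was not called between the female groups (0.30 ± 0.17, adjusted p = 0.214). Por, the electron donor of all 6 enzymes, rose in male ARE-Del livers by 0.96 ± 0.17 (adjusted p = 0.00189), to 18.5, 31.1 and 27.9 RPKM in male ARE-Del, against 10.3, 14.4 and 13.1 RPKM in male WT libraries. Of 28 male-biased genes, 7 rose and 7 fell in females and 2 rose and 3 fell in males. Acute phase genes gave 12 and 4 rises of 23 in females and males with no fall. Of 19 interferon-gamma-induced genes, 19 rose in each sex. Among all tested genes, 25.8% were called up and 5.53% down in females, and 19.5% and 2.04% in males. The 4 acute phase rises in males are thus near the share of all tested genes. Without the library that lacked Xist, 26.1% of all tested genes were called up in females and 20.1% in males. Without the library that lacked Xist, 10 and 7 acute phase genes rose in females and males, 1 rose and 3 fell among the growth hormone and sex-pattern regulators in males, and the other list counts of this paragraph were the same.

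Most tested markers of Kupffer cells, of monocytes and macrophages and of T and NK cells rose with the ARE-Del genotype. Among all tested genes, 25.8% were called up and 5.53% down in females, and 19.5% and 2.04% in males. The summed RPKM of 11 Kupffer cell markers was 585 to 699.7 in female ARE-Del, 123 to 211 in female WT, 328 to 397 in male ARE-Del and 86.1 to 141 in male WT livers, and 9 of 11 tested markers rose in each sex. Cd163, a scavenger receptor and the marker that fell, was lower in female ARE-Del livers, with a log2(RPKM + 1) difference of -1.48 ± 0.32 (adjusted p = 0.00341), and 0 fell in males. For 10 markers of monocytes and macrophages the sums were 181 to 227, 22.3 to 36.0, 108 to 133 and 14.9 to 28.8 RPKM in the same order of groups. Of the 7 tested, 7 rose in females and 6 in males. For 13 markers of T and NK cells the sums were 10.7 to 16.2, 1.41 to 3.00, 6.92 to 10.4 and 1.09 to 1.75 RPKM, and 8 of 8 tested markers rose in females and 7 of 8 in males. Lists for B and plasma cells, neutrophils, cholangiocytes, stellate cells and endothelial cells had 2 of 3, 2 of 3, 2 of 3, 5 of 11 and 2 of 12 tested markers up in females, and the erythroid list had 0 of 3 called. In males the same lists had 2 of 3, 1 of 3, 1 of 3, 3 of 11 and 1 of 12 up, and the erythroid list 0 of 3. The endothelial counts were below the share of all tested genes called up in each sex. With the library that lacked Xist left out, these counts in females were 3 of 3, 1 of 3, 3 of 3, 4 of 11, 1 of 12 and 0 of 3. Those of Kupffer cells, of monocytes and macrophages and of T and NK cells were the same as before. Mpo and Ela2 among the neutrophil markers were listed at 0 in all 3 libraries of some groups. Hepatocyte markers, which define the tissue as labelled, were all present, and their sum, most of it Alb, was 43498 to 45772 in female ARE-Del, 37064 to 38791 in female WT, 26414 to 35917 in male ARE-Del and 26170 to 27359 RPKM in male WT livers. Of these 12, 2 rose and 1 fell in female ARE-Del livers (2 and 2 without that library) and 4 rose in male ARE-Del livers. The median differences were -0.05 in females (-0.066 without that library) and 0.26 in males. In bulk tissue, fewer cells of a type and less RNA per cell cannot be told apart, and the part of cell composition in the falls of Cyp2b9 and Cyp2b13 was not tested.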

How the data were processed

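Per the labels' protocols, liver RNA was extracted with Trizol and made into Illumina TruSeq libraries. The table as deposited by the authors holds RPKM. The submitters' processing notes name Trimmomatic 0.30, TopHat2 2.0.8, Partek, GenomeStudio 6.6 and the mm9 build. The sources used here do not say how reads were assigned to genes or strands.

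From the RPKM values, genes with at least 0.5 RPKM in at least 3 of 12 libraries were tested. A model of 4 group means was fitted to log2(RPKM + 1) by limma 3.58.1 (R 4.3.3), with variances moderated along a trend. P-values were adjusted by Benjamini and Hochberg over 10568 genes within each of 5 comparisons (the genotypes within each sex, the interaction of genotype and sex, and the sexes within each genotype), with a threshold of 0.05. The pseudocount of 1 shrinks differences of genes near or below 1 RPKM. Errors are SE for log2 differences and SD for RPKM. The procedure was tested on simulated data with normal errors, in which only well-expressed genes were changed, in female ARE-Del libraries alone. That simulation does not cover changes in genes of low level or calls of the interaction. Python 3.11.15, pandas 2.3.3, numpy 2.4.6, Biopython 1.88 and matplotlib 3.10.9 were used for summaries, alignments and figures.

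The members and gene lists were chosen with earlier results of these data known. All 6 members are named. From lists, the rule names at most 3 called genes with the largest difference per comparison, a fixed set of regulators and the 3 genes with the most similar pattern per member, not all of which are printed. The labels do not say that replicates are separate animals beyond giving n = 3, and they name no batch or date. P-values therefore measure the spread between these samples. Alternatives were 2 other pseudocounts, 2 other filters, 2 scalings, a fit of the compared groups alone, variances without a trend, the replicate number as a block and leaving out each library.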

Additional observations from a re-analysis of the deposited data

Results flagged for a closer look

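The interaction of genotype and sex for Cyp2b13 passed its test, in a gene with almost no male level. It was -1.05 ± 0.17 (SE) on the log2(RPKM + 1) scale (limma adjusted p = 0.0277). Cyp2b13 was at 33.4 to 49.7 RPKM in the 3 female ARE-Del libraries and at 93.3 to 99.8 RPKM in the 3 female WT libraries. It was listed at 0 in the 3 male ARE-Del libraries and at 0.0148 to 0.118 RPKM in the 3 male WT libraries. The gene passed the filter through its female libraries alone, so the value largely repeats the female difference of -1.12, and a difference between the sexes in proportional change is not shown. The direction was the same in 20 of 20 alternative settings and the call held in 11 of them. With a pseudocount of 0.1 the interaction was -0.60 (adjusted p = 0.611).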

How the results depend on the processing

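Of 624 member results under alternatives, 577 kept their direction and their side of the threshold, 23 lost the call, 15 gained it and 9 changed sign. The female-minus-male calls of Cyp2a4, Cyp2b9, Cyp2b10 and Cyp2b13 and the female fall of Cyp2b13 held in 21 of 21 settings. The causes of the changes below were not tested. Differences are of log2(RPKM + pseudocount), ARE-Del minus WT. With pseudocounts of 0.5 and 0.1, Cyp2b9 in females was -0.79 and -0.79 (not called), Cyp2a4 in males 0.78 and 1.81 and Cyp2b9 in males -0.93 and -1.98 (called), the Cyp2b9 interaction 0.14 and 1.19, and the Cyp2b13 interaction -0.996 and -0.60 (not called). The Cyp2b13 interaction was -1.05 and not called without a filter. Median-of-ratios scaling gave Cyp2a12 -0.12 in females and 0.085 in males and Cyp2b9 in males -0.64 (called). Quantile normalization gave Cyp2a12 -0.019 in males, 0.13 in the interaction and 0.19 for female minus male ARE-Del, and Cyp2b9 in males -0.71 (called). With the compared groups alone, Cyp2a5 in males (0.61) was called and Cyp2a12 in males (0.25) was not.

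Counts of genes called up and down were 46 and 14 for the interaction, and 12 and 2 at pseudocount 0.1, 12 and 3 at 0.5, 29 and 1 without a filter, 22 up with a filter of 1 RPKM, 28 up without a variance trend, 28 up with median-of-ratios scaling and 82 and 24 with quantile normalization. Median-of-ratios scaling gave 1746 down in females (584 in the deposited scale), 1217 up and 968 down in males (2056 and 216), and, for female minus male, 1132 down in ARE-Del (636) and 703 down in WT livers (321). Quantile normalization gave 1616 up and 2497 down in females (2722 and 584), 923 up and 1153 down in males, and 1614 down in ARE-Del and 807 down in WT livers between the sexes.

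Leaving out each library in turn gave -0.0077 to 0.090 for Cyp2a12 and -1.16 to -0.54 for Cyp2b10 in females. In males it gave 0.28 to 0.60 for Cyp2a4, 0.51 to 0.74 for Cyp2a5, 0.22 to 0.30 for Cyp2a12, -0.83 to -0.46 for Cyp2b9 and -0.78 to 0.11 for Cyp2b10. For the interaction it gave -0.33 to 0.040 for Cyp2b9 and -1.15 to -0.87 for Cyp2b13. Counts up and down were 1122 to 2223 and 122 to 257 in males, 9 to 84 and 2 to 30 for the interaction, 1113 to 1789 and 309 to 709 between ARE-Del sexes, and 329 to 911 and 206 to 350 between WT sexes.

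Same-numbered libraries of different groups correlated at -0.29 to 0.24 in their deviations, over 0.1 in 5 of 18 pairs. Other-numbered libraries did so at -0.25 to 0.23, over 0.1 in 11 of 36 pairs. No pairing by replicate number was thus seen, but with 3 libraries per group this check cannot exclude it. With the replicate number as a block, Cyp2a12 in males was 0.25 and not called (adjusted p = 0.0708), and the interaction had 23 genes up and 9 down. It changed no other member call.

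Depth is unknown, so no floor can be set for values near 0, and male Cyp2a4, Cyp2b9 and Cyp2b13 lie there. The split of reads within the close pairs is uncertain.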
